A study of Homo sapiens with 12 samples.

Results

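DNA topoisomerases and the tyrosyl-DNA phosphodiesterases that clean up after them were followed in A673 cells, an established Ewing sarcoma line whose EWS-FLI1 fusion joins the EWS gene to FLI1, an ETS-family transcription factor. The 8 genes were chosen by name as a functional family, with earlier results of these data known: the nuclear and mitochondrial type IB enzymes TOP1 and TOP1MT, the type IIA enzymes TOP2A and TOP2B, the type IA enzymes TOP3A and TOP3B, and the phosphodiesterases TDP1 and TDP2. All 8 were measured, each by 1 probe set that names no other gene, among 18404 genes tested. RNA was hybridized to 12 Affymetrix Gene 1.0 ST arrays in 6 groups of 2. The drug experiment comprised untreated cells at 0 h, cells given the solvent DMSO for 24 h, and cells given 5 nM or 50 nM actinomycin D for 24 h. The knock-down experiment comprised cells with lentiviral FLI1 shRNA and cells with lentiviral lacZ shRNA, directed at a bacterial gene, both labelled 48 h and both grown in puromycin. All groups carry the same fusion and come from the same cell line, and FLI1 was targeted by a single shRNA. The paper states duplicate treatment for DMSO and 5 nM actinomycin D, without saying whether the duplicates were independent experiments. For the other groups the sources do not say whether the arrays came from separate cultures. Each p-value therefore reflects only how far these arrays scatter, and that scatter may be technical.

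Topoisomerases cut DNA, let strands pass or turn, and reseal the cut, with a tyrosine of the enzyme held on the DNA end in between. Type IB enzymes relieve the torsion that RNA polymerase builds up, type IIA enzymes pass a duplex through a break in another and separate sister chromatids, and type IA enzymes unlink single strands, TOP3A together with the BLM helicase. When the enzyme stays trapped, TDP1 removes it mainly from 3' ends and TDP2 mainly from 5' ends. Actinomycin D intercalates into DNA at GpC steps, blocks RNA polymerases and can trap topoisomerases on DNA.

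The 250 bases before the start of 3 members are shown because TOP2A and TOP3A are the members that fell after FLI1 shRNA, and TOP2B is the paralogue of TOP2A for which no change passed there. For TOP2B the outermost of its RefSeq starts is used. They are RefSeq sequences of GRCh38.p14, printed 5' to 3' on the gene's strand. Capitals mark, on either strand, CCAAT (the NF-Y box) and TTTGAA (the cell-cycle CHR element) in TOP2A and TOP2B. In TOP3A they mark CGGAAG, a longer form of the GGAA that ETS factors bind. The shorter GGAA was neither searched nor marked.
TOP2A, minus strand, chr17:40417897-40418146: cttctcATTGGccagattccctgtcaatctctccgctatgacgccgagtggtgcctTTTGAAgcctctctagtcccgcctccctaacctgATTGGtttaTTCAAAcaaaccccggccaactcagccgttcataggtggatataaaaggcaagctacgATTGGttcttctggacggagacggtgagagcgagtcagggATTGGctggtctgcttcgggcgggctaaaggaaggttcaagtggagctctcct
TOP2B, minus strand, chr3:25664908-25665157: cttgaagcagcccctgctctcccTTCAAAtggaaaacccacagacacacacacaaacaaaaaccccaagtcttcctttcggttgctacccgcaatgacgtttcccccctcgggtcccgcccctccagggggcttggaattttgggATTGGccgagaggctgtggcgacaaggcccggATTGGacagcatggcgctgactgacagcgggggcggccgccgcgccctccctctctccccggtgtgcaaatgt
TOP3A, minus strand, chr17:18314995-18315244: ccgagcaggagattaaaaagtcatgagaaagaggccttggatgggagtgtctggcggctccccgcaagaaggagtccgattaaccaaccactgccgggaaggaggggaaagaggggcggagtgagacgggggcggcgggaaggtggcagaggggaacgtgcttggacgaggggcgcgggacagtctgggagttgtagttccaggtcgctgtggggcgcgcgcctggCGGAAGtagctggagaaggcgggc

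TOP2A held 4 copies of CCAAT and 2 of TTTGAA, TOP2B held 2 and 1, and TOP3A held neither but 1 CGGAAG. The window before the inner RefSeq start of TOP2B held 0 CCAAT and 0 TTTGAA. Over all 35116 such windows, 32% held CCAAT, 2.93% held at least 3 copies, 13.3% held TTTGAA and 16.5% held CGGAAG. The searches were for exact letters on both strands, and a match is a description of the sequence and not a bound site. The other motifs searched were TATAAA (the TATA box), found in TOP2A alone among the 7 members with a window, and GGGCGG (the GC box), found in TOP1, TOP2A, TOP2B, TOP3A and TDP2. All windows held TATAAA in 10.7% and GGGCGG in 42.6% of cases. The TDP1 window (chr14:89955677-89955926, plus strand) precedes a RefSeq start that lies inside the outermost limits of the gene, and it held 1 CGGAAG and 1 TTTGAA. TOP3B held none of the 5 motifs.

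The targeted gene was lower in the knock-down: FLI1 read 7.30 and 7.08 with FLI1 shRNA against 8.63 and 8.45 with lacZ shRNA on the deposited log2 scale (log2 fold change -1.35 ± 0.09, SE, adjusted p = 5.39e-06). FLI1 also read 7.71 and 7.60 at 50 nM against 8.59 and 8.61 with DMSO (-0.95, adjusted p = 1.68e-05), and 8.50 and 8.55 at 5 nM (-0.08, adjusted p = 0.479). Probe positions within FLI1 were not analysed here, so the fusion transcript and unfused FLI1 cannot be told apart. By the mean over all 12 arrays, all 7 measured Ewing sarcoma markers lay above the median gene. NR0B1, also on that list of 8, was not among the genes tested. Blood (0 of 4) and endothelial (0 of 5) markers did not, and KRT14 was the only 1 of 5 epithelial markers that did. The summed endothelial markers were higher with FLI1 shRNA (8.42 on both arrays) than with lacZ shRNA (7.90 and 8.07), where KDR rose (1.85, adjusted p = 3.82e-06), PECAM1 fell (-0.55, adjusted p = 0.00149) and CDH5, VWF and TEK did not pass. With the drug, 2 of 4 blood and 2 of 5 endothelial markers rose at 5 nM, beside 30.3% of all genes. At 50 nM 3 of 4 and 2 of 5 rose, beside 25.8%, and no epithelial marker passed at either dose. Of the 7 Ewing sarcoma markers, FLI1 among them, 6 fell after FLI1 shRNA, beside 9.28% of all genes. At 5 nM 3 of the 7 fell (23% of all genes), and at 50 nM 3 fell and 2 rose (23.3% and 25.8%). The summed blood markers read 7.00 and 7.29 with DMSO, 7.45 and 7.65 at 5 nM and 7.55 and 7.56 at 50 nM, and the summed endothelial markers 7.82 and 7.94, 8.07 and 8.13, and 8.08 and 8.12. The part of these markers in the results was not tested. The median of an array ranged from 6.67 to 6.83, and the correlation within groups from 0.995 to 0.998.

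The 8 genes responded most widely to 5 nM actinomycin D, where 7 fell and TDP2 rose. At an adjusted p under 0.05 (limma, Benjamini-Hochberg over all genes), 23% of all genes fell and 30.3% rose at this dose. At 50 nM, 5 members fell (TOP2A, TOP2B, TOP3A, TOP3B and TDP1), none rose and 3 did not pass, against 23.3% of all genes that fell and 25.8% that rose. After FLI1 shRNA, TOP2A and TOP3A fell, none rose and 6 did not pass, against 9.28% of all genes that fell and 14.6% that rose. The members' median log2 change was -0.49 at 5 nM, -0.68 at 50 nM and -0.05 after FLI1 shRNA, beside medians over all genes of 0.12, 0.10 and -0.01. Both drug comparisons use the same DMSO arrays. At the stricter threshold of more than 2-fold and adjusted p under 0.01, TOP2B and TDP1 were lower at 5 nM (7.86% of all genes were) and TOP3B at 50 nM (5.38%).

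**Figure D1:**
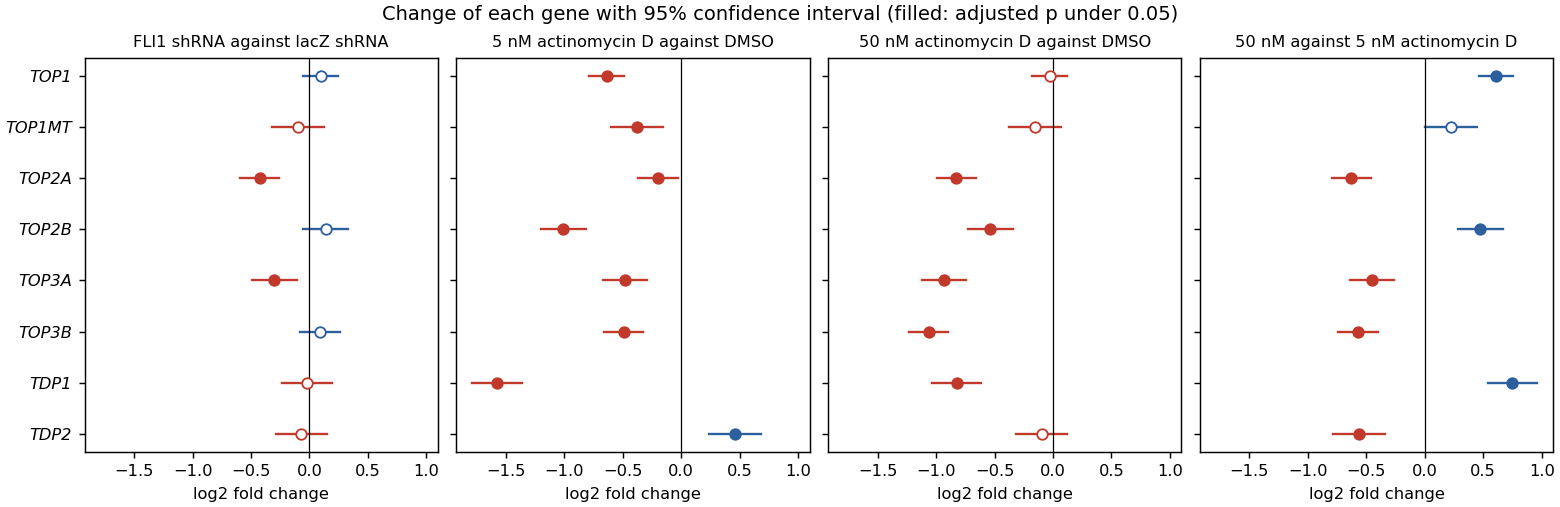
Log2 fold change (x axis) of each of the 8 genes (rows) with its 95% confidence interval in 4 comparisons of 2 arrays against 2; filled points have a limma adjusted p under 0.05. TDP1 has the lowest point, -1.57 at 5 nM, and TDP2 is the only filled point above 0 against DMSO, at 0.46.

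No member passed the threshold in limma between DMSO at 24 h and untreated cells at 0 h. These groups differ in time as well as in solvent, which cannot be told apart. Against untreated cells 3 members had an unadjusted p under 0.05, TOP2A (0.27), TOP2B (0.37) and TDP2 (0.23), with adjusted p-values of 0.498, 0.453 and 0.652. Over all genes 0.00543% were called and 1383 had an unadjusted p under 0.05. Because this difference for TOP2A is as large as the 5 nM change of that gene, each member's untreated values are given beside its DMSO values.

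RMA normalization makes each value relative to the rest of its array. Quantile normalization applied again moved the median change of all genes at 5 nM from 0.12 to 0.0080. Centring each array instead on 57 cytoplasmic ribosomal protein genes moved the median change of all genes to -0.26 at 5 nM, -0.05 at 50 nM and 0.25 for 50 nM against 5 nM. The share of calls that were higher then moved from 56.9% to 15.4% at 5 nM, from 52.5% to 24.3% at 50 nM, from 48.3% to 74.0% between doses, and from 61.2% to 75.4% after FLI1 shRNA. A lower level in these bulk RNAs can be fewer cells in a phase that expresses the gene or less RNA per cell, which cannot be told apart.

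TOP1, the nuclear enzyme that relaxes supercoils ahead of RNA polymerase and the target of camptothecins, lies on chromosome 20 (GRCh38.p14, 41028822 to 41124487). It read 10.89 and 10.91 at 5 nM, 11.54 and 11.48 at 50 nM, 11.56 and 11.51 with DMSO, and 11.48 and 11.51 untreated. The 5 nM arrays lay below all the other 10. The level at 5 nM was 64.2% of the DMSO level (-0.64 ± 0.07, adjusted p = 1.3e-05). At 50 nM the difference from DMSO was -0.03 (95% interval -0.18 to 0.12, adjusted p = 0.734), and the direct contrast of doses gave 0.61 ± 0.07 (adjusted p = 1.79e-05). With the knock-down TOP1 read 11.66 and 11.72, against 11.63 and 11.56 with lacZ shRNA. Those arrays do not overlap but lie close, and the difference of 0.10 did not pass (interval -0.05 to 0.24, adjusted p = 0.354).

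TOP1MT, the vertebrate enzyme that relaxes the mitochondrial genome, is encoded in the nucleus (chromosome 8, 143309324 to 143359977). It read 8.56 and 8.53 at 5 nM, 8.77 and 8.77 at 50 nM, 8.75 and 9.09 with DMSO, and 9.12 and 9.03 untreated. The 5 nM arrays were again the lowest of all 12, but the DMSO arrays differed from each other by nearly as much as the groups did. The 5 nM change was -0.38 ± 0.10 (adjusted p = 0.00905), and without DMSO replicate 2 it was -0.20 (adjusted p = 0.0768). At 50 nM the change was -0.15 (interval -0.38 to 0.07, adjusted p = 0.232). It read -0.32 (adjusted p = 0.0167) without DMSO replicate 1 and 0.02 without DMSO replicate 2, so its call and its sign turn on single DMSO arrays. The 2 FLI1 shRNA arrays (8.72 and 8.65) lay just under the lacZ arrays (8.81 and 8.75), a difference of -0.10 (interval -0.32 to 0.13, adjusted p = 0.541).

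Genes that copy and package mitochondrial DNA mostly rose at the low dose, where TOP1MT fell. Of 10 measured, 8 rose at 5 nM and none fell, with a median of 0.45, beside 30.3% of all genes that rose, although after ribosomal protein centring only 3 rose and 2 fell. TWNK, the mitochondrial replicative helicase, rose by 1.54, TFAM, which coats the genome, by 0.86, and the polymerase subunits POLG and POLG2 by 0.74 and 0.66 (POLG2 0.28 and not called after that centring). At 50 nM 4 fell, 3 rose and 3 did not pass, beside 23.3% of all genes that fell and 25.8% that rose. The largest changes were those of TFB2M (-0.91), MGME1 (-0.56), TWNK (-0.48) and POLG (-0.37, not called without 50 nM replicate 1). After FLI1 shRNA 3 fell, beside 9.28% of all genes: TFB2M (-0.54), MGME1 (-0.32) and TFAM (-0.30). Without FLI1 shRNA replicate 2 or lacZ shRNA replicate 1 that count was 1, TFB2M, and MGME1 also did not pass without FLI1 shRNA replicate 1.

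TOP2A, the mitotic isoform that decatenates sister chromatids and the main target of etoposide and doxorubicin in dividing cells, fell in the knock-down and further at the high dose. It lies on chromosome 17 (40388525 to 40417896). With FLI1 shRNA it read 10.13 and 10.23, against 10.66 and 10.55 with lacZ shRNA. The level was 74.4% of the control (-0.43 ± 0.08, adjusted p = 0.0021), the 5.06th percentile of changes over all genes. The drug arrays read 9.92 and 9.78 at 50 nM and 10.50 and 10.46 at 5 nM, against 10.69 and 10.67 with DMSO and 10.40 and 10.41 untreated. The 50 nM arrays were the lowest of all 12 (-0.83 ± 0.08 against DMSO, adjusted p = 8.72e-06, and -0.63 against 5 nM, adjusted p = 3.89e-05). The 5 nM arrays lay below DMSO but above the untreated arrays. Their change of -0.20 ± 0.08 (adjusted p = 0.0473) did not pass with the replicate number as a block (adjusted p = 0.0561), without any 1 of the 4 arrays (0.0659 to 0.153), or against the mean of DMSO and untreated (-0.06, adjusted p = 0.422).

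TOP2B, the paralogue that works outside mitosis, including at promoters of transcribed genes, behaved differently. It lies on chromosome 3 (25597905 to 25664907). It read 9.39 and 9.23 at 5 nM, 9.84 and 9.73 at 50 nM, 10.26 and 10.38 with DMSO, and 9.96 and 9.94 untreated. The 4 drug arrays lay below the other 8, the 5 nM arrays lowest. The 50 nM mean of 9.78 lay closer to the untreated mean of 9.95 than to the DMSO mean of 10.32. The level was 49.6% of DMSO at 5 nM (-1.01 ± 0.09, adjusted p = 2.88e-06) and 69.0% at 50 nM (-0.54 ± 0.09, adjusted p = 5.39e-04), and 0.47 higher at 50 nM than at 5 nM (adjusted p = 8.85e-04). With FLI1 shRNA it read 10.29 and 10.20, against 10.18 and 10.03 with lacZ shRNA. These arrays lie next to each other, and the difference of 0.14 did not pass (interval -0.05 to 0.33, adjusted p = 0.3).

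The condensin subunits and the chromokinesin KIF4A compact mitotic chromosomes together with topoisomerase II. Of these 9 genes 7 fell in the knock-down and none rose (median -0.43), beside 9.28% of all genes that fell, and KIF4A (-0.16, adjusted p = 0.112) and NCAPD2 (-0.03, adjusted p = 0.797) did not pass. NCAPG (-0.58), NCAPH (-0.56), NCAPG2 (-0.55) and NCAPH2 (-0.51) changed most. Without FLI1 shRNA replicate 1 the count was 4 and NCAPH2 no longer passed. Of 20 genes of G2 and M phase, 11 fell after FLI1 shRNA, among them CDK1 (-0.52), CCNA2 (-0.48), the proliferation marker MKI67 (-0.44) and AURKB (-0.41). That count was 5 without FLI1 shRNA replicate 1, 4 without lacZ shRNA replicate 1 (where AURKB did not pass), and 7 without either other array or with ribosomal protein centring.

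With the drug the mitotic genes did not all move the same way. At 5 nM 12 of the 20 fell and 5 rose, beside 23% of all genes that fell and 30.3% that rose. HMMR (-1.77), the spindle motor KIF11 (-1.64) and ANLN (-1.40) fell, and UBE2C, which charges the anaphase-promoting complex with ubiquitin, rose by 0.99. At 50 nM 16 fell and 2 rose, beside 23.3% of all genes that fell and 25.8% that rose. The falls were led by the kinases AURKA (-1.41), PLK1 (-1.38) and BUB1 (-1.12) and by CENPF (-1.38). HMMR and ANLN were higher at 50 nM than at 5 nM (1.38 and 1.23), whereas CCNB1 and AURKA were lower (-1.33 and -1.21), as TOP2A was. Of the 9 condensin and KIF4A genes 7 fell at 5 nM and 1 rose, led by NCAPD3 (-1.22), KIF4A (-0.85), SMC4 (-0.71) and NCAPG2 (-0.65). At 50 nM 5 fell, with NCAPH (-0.92) and NCAPG (-0.90) ahead of SMC4 (-0.38) and NCAPD2 (-0.29).

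**Figure D2:**
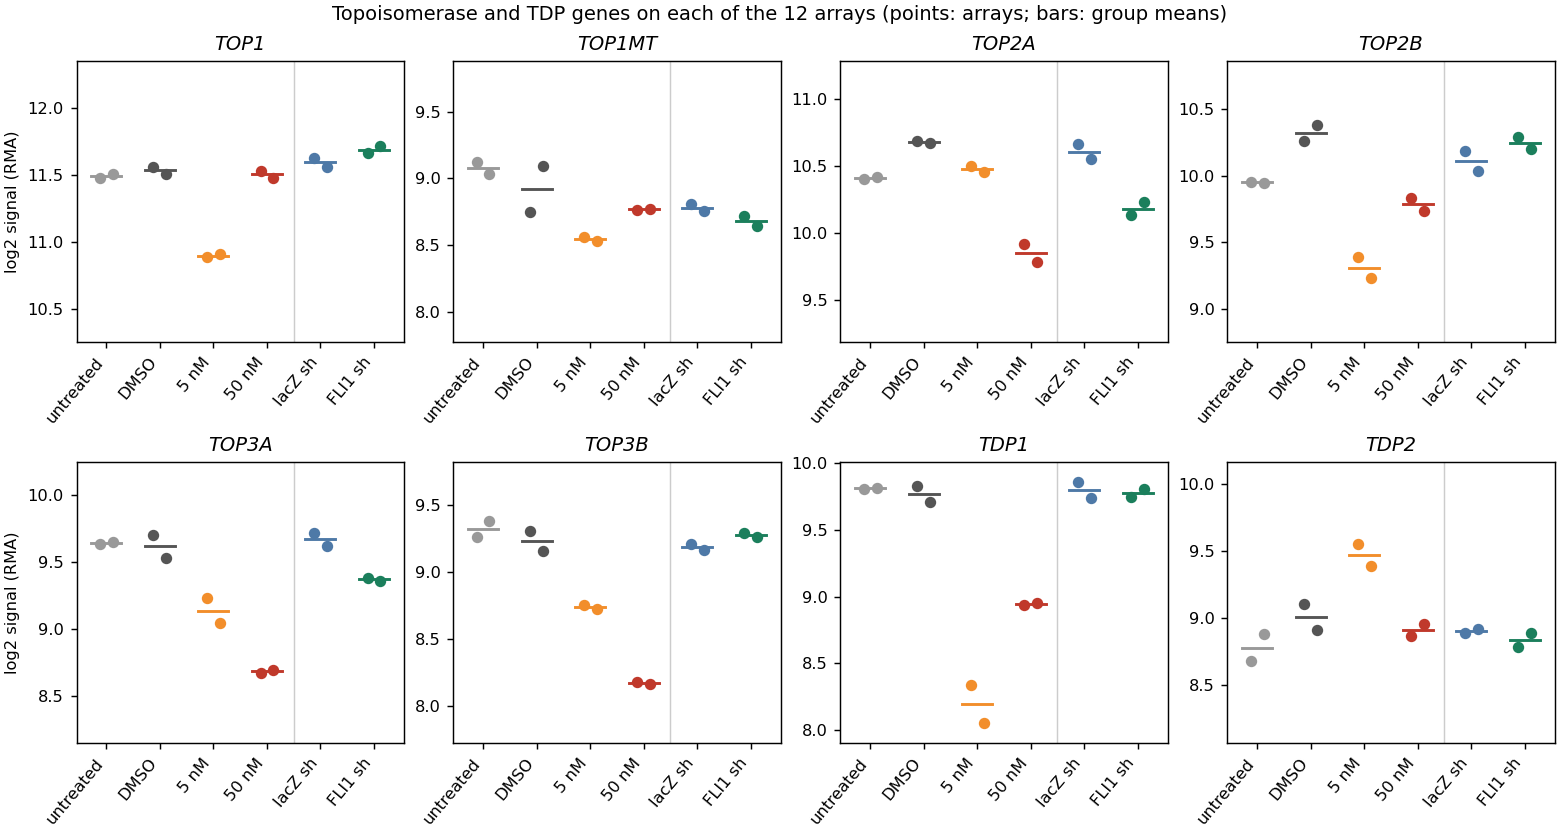
Deposited log2 value (y axis) of each of the 8 genes on every array, 2 points in each of the 6 groups, with a bar at the group mean; all panels span the same number of log2 units, and levels are not comparable between genes. The 5 nM arrays are the lowest for TOP1, TOP1MT, TOP2B and TDP1, and the 50 nM arrays for TOP2A, TOP3A and TOP3B.

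TOP3A, the type IA enzyme that dissolves joined DNA molecules, is on chromosome 17 (18271428 to 18314994). It read 8.67 and 8.69 at 50 nM, 9.23 and 9.04 at 5 nM, 9.70 and 9.53 with DMSO, and 9.63 and 9.65 untreated. The 50 nM, 5 nM and DMSO arrays formed 3 separate groups that went down with dose, and the untreated arrays lay within the DMSO range. The change against DMSO was -0.48 ± 0.09 at 5 nM (adjusted p = 6.77e-04) and -0.94 ± 0.09 at 50 nM (adjusted p = 8.26e-06). Between doses the arrays differed by -0.45 (adjusted p = 0.00103). In the knock-down TOP3A read 9.38 and 9.36 against 9.72 and 9.62 with lacZ shRNA. The FLI1 shRNA arrays were lower and close together (-0.30 ± 0.09, adjusted p = 0.027), but the call did not hold without any 1 of the 4 arrays (-0.25 to -0.35, adjusted p = 0.054 to 0.136) or after ribosomal protein centring (-0.23, adjusted p = 0.0525).

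BLM, RMI1 and RMI2 form with TOP3A the complex that dissolves Holliday junctions between joined DNA molecules, and all 3 fell along with it after FLI1 shRNA. BLM read 8.98 and 9.03 against 9.78 and 9.67 with lacZ shRNA (-0.72, adjusted p = 5.89e-05). RMI1 read 7.78 and 8.10 against 8.75 and 8.65 (-0.76, adjusted p = 4.58e-04), and RMI2 changed by -0.49 (adjusted p = 7.86e-04). The BLM and RMI1 arrays do not overlap between these groups. Non-overlap of 2 against 2 arrays is not a call: the TOP1 arrays also did not overlap here, and TOP1 did not pass. Of all genes 9.28% fell after FLI1 shRNA. At 50 nM BLM fell to 7.51 and 7.50 from 9.94 and 9.84 with DMSO (-2.38), RMI1 fell (-1.17) and RMI2 fell (-0.28). The RMI2 change did not pass after quantile normalization was applied again (-0.12) or without DMSO replicate 1 or 50 nM replicate 1. At 5 nM BLM fell to 8.00 and 7.95 (-1.92), RMI2 fell (-0.29), and RMI1 read 9.31 and 9.24 against 8.97 and 8.94. That higher RMI1 level (0.32, adjusted p = 0.0263) did not pass without any 1 of the 4 arrays and was -0.058 after ribosomal protein centring. Between doses RMI1 was lower at 50 nM (-1.49, adjusted p = 6.58e-07).

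TOP3B, which acts on RNA as well as DNA, fell by more than 2-fold at the high dose and not in the knock-down. It lies on chromosome 22 (21957025 to 21982787). It read 8.18 and 8.16 at 50 nM, 8.76 and 8.72 at 5 nM, 9.31 and 9.16 with DMSO, and 9.26 and 9.38 untreated. The drug arrays were the lowest 4 of 12, ordered by dose. The change was -0.49 ± 0.08 at 5 nM (adjusted p = 2.44e-04), -1.06 ± 0.08 at 50 nM (adjusted p = 1.43e-06) and -0.57 between doses (adjusted p = 8.2e-05). With FLI1 shRNA it read 9.29 and 9.26 against 9.21 and 9.17 (0.09, interval -0.08 to 0.26, adjusted p = 0.453). Its scaffold TDRD3 rose after FLI1 shRNA (0.36, adjusted p = 0.00451), and FMR1, the fragile X protein that joins them, fell at 5 nM (-0.70, adjusted p = 1.23e-04). Over all genes, 9.28% fell and 14.6% rose after FLI1 shRNA, 23% and 30.3% at 5 nM, and 23.3% and 25.8% at 50 nM. The medians over all genes were -0.01, 0.12 and 0.10. Of the 5 partners of TOP3A and TOP3B, 3 fell and 1 rose after FLI1 shRNA (median -0.49). At 5 nM 4 fell and 1 rose (-0.29), and at 50 nM 3 fell (-0.28). Without DMSO replicate 1 or 5 nM replicate 2 the 5 nM count was 3 in all.

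**Figure D3:**
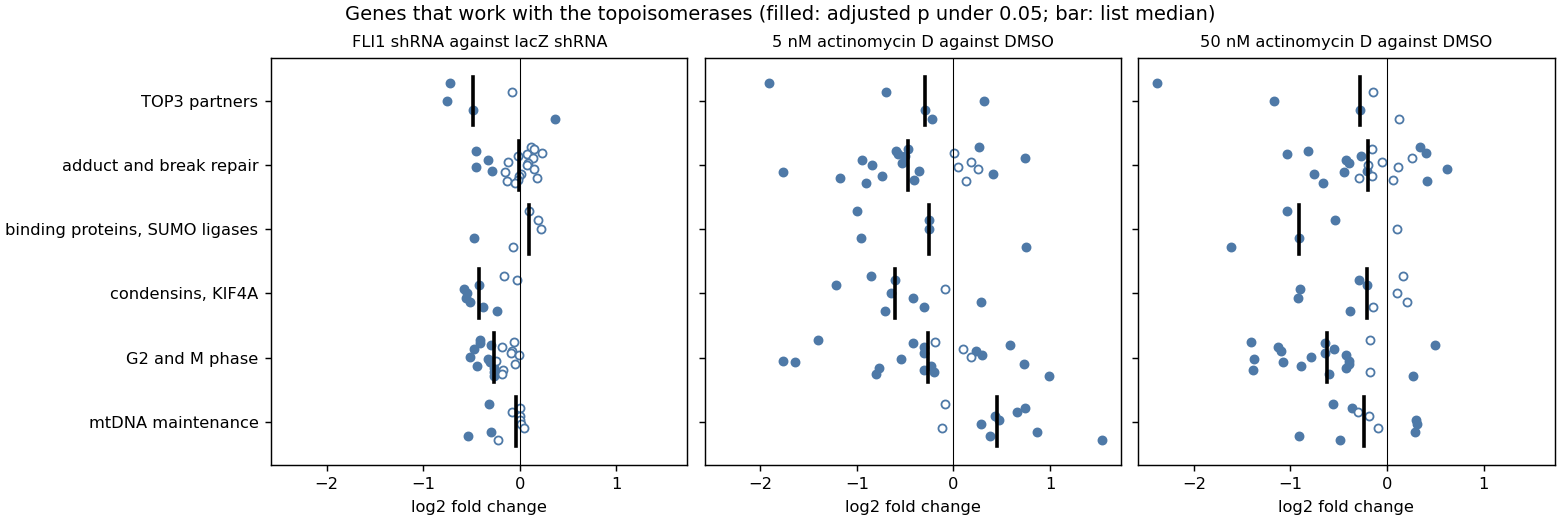
Log2 fold change (x axis) of every measured gene of the 6 partner lists (rows) in 3 comparisons, a point per gene, filled where the limma adjusted p is under 0.05, with a bar at the list median. BLM, among the partners of TOP3A and TOP3B, has the lowest point of that list at 5 nM (-1.92) and at 50 nM (-2.38).

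TDP1, which hydrolyses the bond between DNA and a trapped TOP1, showed the largest change of the 8 genes in any comparison with a control. It lies on chromosome 14 (89954968 to 90044764). It read 8.34 and 8.05 at 5 nM, 8.94 and 8.95 at 50 nM, 9.83 and 9.71 with DMSO, and 9.81 and 9.81 untreated. Both doses lay below all other arrays, and the lower dose gave the lower level. The level at 5 nM was 33.6% of DMSO (-1.57 ± 0.10, adjusted p = 2.13e-07), the 2.70th percentile of all genes. At 50 nM it was 56.4% (adjusted p = 5.03e-05), and the direct contrast of doses was 0.75 ± 0.10 higher at 50 nM (adjusted p = 6.01e-05). In the knock-down the arrays interleaved, at 9.74 and 9.81 against 9.86 and 9.74 (-0.02, interval -0.23 to 0.19, adjusted p = 0.902).

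TDP2, which frees trapped topoisomerase II from DNA ends, went the opposite way at 5 nM. It lies on chromosome 6 (24649979 to 24666899). It read 9.56 and 9.39 at 5 nM, 8.86 and 8.96 at 50 nM, 9.11 and 8.91 with DMSO, and 8.68 and 8.88 untreated. The 5 nM arrays were the highest of all 12, and the 50 nM and DMSO arrays overlapped. The 5 nM change was 0.46 ± 0.10 (adjusted p = 0.00253), or 0.34 relative to the median of all genes, and it did not pass after ribosomal protein centring (0.09, adjusted p = 0.418) or once the trend of each array with gene span was removed (0.25, adjusted p = 0.0663). At 50 nM the change was -0.10 (interval -0.32 to 0.12, adjusted p = 0.432), and with ribosomal protein centring -0.25 (adjusted p = 0.0433). Between doses TDP2 was lower at 50 nM (-0.56, adjusted p = 7.3e-04). With FLI1 shRNA it read 8.78 and 8.89 against 8.89 and 8.92 (-0.07, interval -0.29 to 0.15, adjusted p = 0.678).

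Of 21 other genes that remove trapped topoisomerases or repair the breaks they leave, 13 fell and 3 rose at 5 nM (median -0.47), beside 23% of all genes that fell and 30.3% that rose. The MRE11 nuclease complex was among them, with RAD50 at -1.76 and MRE11 at -0.95, together with the end-joining factor XRCC4 (-1.17) and the SUMO ligase ZNF451 (-0.91), which assists TDP2. At 50 nM 9 fell and 4 rose (median -0.20), beside 23.3% of all genes that fell and 25.8% that rose. The falls were led by the nuclease subunits ERCC4 (-1.03) and EME1 (-0.82), the protease SPRTN (-0.76) and ZNF451 (-0.67). RAD50 and XRCC4 were higher at 50 nM than at 5 nM (1.32 and 0.88), as TDP1 was, whereas SPRTN was lower (-1.16), as TDP2 was. After FLI1 shRNA 4 of the 21 fell and none rose, beside 9.28% of all genes that fell and 14.6% that rose. The list median of -0.01 was that of all genes to this rounding. Those that fell were PARP1 (-0.45), EME1 (-0.46), MRE11 (-0.33) and PRKDC (-0.29). Without FLI1 shRNA replicate 1 or lacZ shRNA replicate 1 only PARP1 passed, and PRKDC also did not pass without FLI1 shRNA replicate 2.

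Of 5 measured proteins that bind or SUMOylate topoisomerases, 4 fell at each dose, and TOPORS moved in opposite directions. Of all genes, 23% fell and 30.3% rose at 5 nM, 23.3% and 25.8% at 50 nM, and 9.28% and 14.6% after FLI1 shRNA. TOPORS, a TOP1-binding ubiquitin and SUMO ligase, rose at 5 nM (0.75, adjusted p = 2.28e-05) and fell at 50 nM (-1.62, adjusted p = 2.03e-07). TOPBP1, the checkpoint protein named for its binding to TOP2B, fell at 5 nM (-0.96), at 50 nM (-0.91) and after FLI1 shRNA (-0.48). PIAS1, a SUMO ligase, fell at 5 nM (-1.0) and at 50 nM (-1.04). PIAS4, another, fell at 50 nM (-0.54), and its 5 nM change (-0.25, adjusted p = 0.0142) did not pass without DMSO replicate 1 or 5 nM replicate 2. Over the list, 4 fell and 1 rose at 5 nM (median -0.25), 4 fell at 50 nM (-0.91) and TOPBP1 alone fell after FLI1 shRNA (median 0.09). The 5 nM count was 3 without DMSO replicate 1 or 5 nM replicate 2.

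Ordered by the length of the transcribed gene, a grouping made after the values were seen, the members fell into blocks by dose pattern. The 3 longest, TOP1 (95.7 kb), TDP1 (89.8 kb) and TOP2B (67.0 kb), were the members with a higher level at 50 nM than at 5 nM that passed the test. TOP3A (43.6 kb), TOP2A (29.4 kb) and TOP3B (25.8 kb) were lower at 50 nM than at 5 nM, and so was TDP2 (16.9 kb), the shortest and the only one that rose at 5 nM. TOP1MT (50.7 kb), in between, did not differ past the threshold between doses (0.22, adjusted p = 0.0973). In that contrast 21.6% of all genes were higher and 23.1% lower.

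Over all protein-coding genes the change at 5 nM went down with span up to 200 kb. Of 16897 such genes, 6.43% of genes spanning 10 to 20 kb fell, 17.4% of those at 20 to 40 kb, 33.2% at 40 to 60 kb, 46.0% at 60 to 80 kb and 54.2% at 80 to 100 kb. Their median changes were 0.23, 0.13, -0.02, -0.16 and -0.31. The share was 59.3% at 100 to 200 kb (median -0.50) and 55.3% above 200 kb (-0.46). At 50 nM the medians of the same bins were 0.13, 0.05, 0.01, -0.02 and -0.03, followed by -0.08 at 100 to 200 kb and 0.01 above. With the trend removed from each array, TDP1 was still lower at 5 nM (-1.25), as was TOP2B (-0.80). TOP1 then read -0.29 (adjusted p = 0.00273) and TOP3B -0.62. Span is that of the gene in GRCh38.p14, and its part in any 1 member's change was not tested beyond this.

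**Figure D4:**
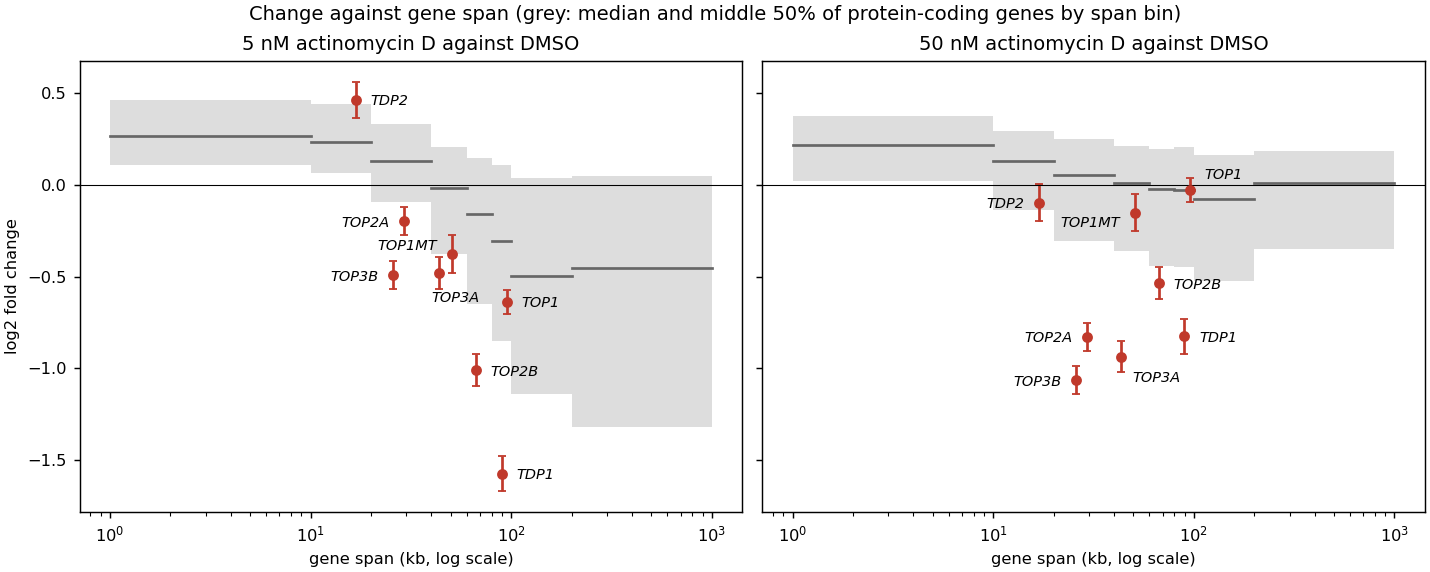
Log2 fold change (y axis) of the 8 genes, with standard errors, against gene span in kb (x axis, log scale) at 5 nM and 50 nM against DMSO; grey lines and boxes give the median and middle 50% of protein-coding genes in each span bin, the open-ended outer bins being drawn to the edges. At 5 nM the bin medians go down from 0.23 at 10 to 20 kb to -0.31 at 80 to 100 kb, and TDP1 lies at -1.57.

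Whether a member responded differently to FLI1 shRNA and to 5 nM actinomycin D was tested directly as the difference of both responses, each against its own control. The responses differed for 5 members. The FLI1 shRNA response was higher for TDP1 (by 1.55, adjusted p = 5.61e-06), TOP2B (1.15, adjusted p = 2.43e-05), TOP1 (0.73, adjusted p = 9.44e-05) and TOP3B (0.58, adjusted p = 0.00114), and lower for TDP2 (-0.53, adjusted p = 0.0104). For TOP1MT (0.28, adjusted p = 0.133), TOP2A (-0.23, adjusted p = 0.104) and TOP3A (0.18, adjusted p = 0.238) no difference passed, and TOP2A read 0.22 after ribosomal protein centring. Over all genes 46.6% passed this test. The TDP2 difference did not pass after ribosomal protein centring (-0.08) or with the span trend removed (-0.32). The treatments differ in length and in the virus and selection as well as in kind.

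The genes whose 12 array values ran most nearly parallel to each member were ranked by Pearson correlation over all genes tested, where arrays of a group share their treatment. TOP1 ran with EPHA3, RBMS1 and UTRN (0.995 each), TDP1 with RAPGEF6 (0.996), RBM27 and NUP98 (0.995 each), and TOP3B with TMEM138 (0.995), QRICH1 (0.994) and ATXN7 (0.992). TOP3A ran with INTS6L (0.990), DDX31 (0.988) and EFS (0.987), and TOP2B with FXR1 (0.976), EVI5 (0.970) and RHOT1 (0.967). TOP2A ran with the condensin subunit NCAPG (0.971), the histone gene H4C13 (0.968) and UMPS (0.964). TOP1MT ran with HNRNPH3 (0.964), BASP1 (0.950) and ZNF326 (0.943), and TDP2 with DMAC1 (0.959), THAP9 (0.956) and SMIM15 (0.955).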

How the data were processed

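RNA from A673 cells was measured on 12 arrays, and samples were grouped by their labels. The deposited unit is log2 signal per probe set: after background correction the authors applied RMA normalization in the Bioconductor affy package (version not given in the sources used here). They were used as deposited, and 0 value columns lacked a sample. Of 32321 rows, 19158 name 1 gene symbol, 1388 several and 11775 none, and 19128 of the first kind were matched by gene ID. Where several probe sets named a gene (637 genes), the one with the highest mean stood for it, leaving 18404 genes. Two-sided contrasts of group means were fitted in R 4.3.3 with limma 3.58.1 over all 12 arrays (6 residual and 4.45 prior degrees of freedom) and adjusted by Benjamini-Hochberg over all genes; rose and fell mean an adjusted p under 0.05, ± is a standard error, and intervals are 95%. The 2 arrays of a group limit the precision of every value, and a permutation of 2 against 2 arrays cannot give a two-sided p below 0.333. The fit was tested on simulated data.

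The 8 members and the gene lists, which come from general knowledge, were chosen with earlier results of these data known. Named genes were all members, up to 4 called genes with the largest change of each list in a comparison, and the 3 genes most correlated with each member whose group means span more than 0.5. Of 73 genes of 6 pathway lists 70 were measured. Promoters and gene spans are from RefSeq, GRCh38.p14, and 7 of 8 members had a promoter entry (not TOP1MT). Alternatives were a block for replicate number, a fit of the compared arrays only, dim genes (below the 40th percentile) left out, the mean over probe sets, repeated quantile normalization, ribosomal protein centring, eBayes in its trended and robust form, removal of the trend with gene span, untreated arrays added to the control, and each array left out in turn.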

Additional observations from a re-analysis of the deposited data

How the results depend on the processing

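The 48 member values (8 genes in 6 comparisons) were recomputed 640 times. Of these, 600 kept their direction and side of the threshold, 17 lost and 9 gained a call, and 14 changed sign. None of the 14 came from a called value. Several alternatives leave a member's log2 change as it is by construction, so there only the call could move. They are the replicate block, the compared arrays only, dim genes left out, the mean over probe sets, and trended and robust eBayes. After FLI1 shRNA the number of members called was 1 in place of 2 with ribosomal protein centring, and 1 to 1 without any single array, TOP2A in each case. Leaving out an array gave 6 to 7 members called at 5 nM, 5 to 6 at 50 nM, 7 between doses, 0 for DMSO and 5 to 6 for the difference of responses. Signs changed after FLI1 shRNA for TDP1 (0.048 with ribosomal protein centring, -0.082 to 0.039 without single arrays) and TDP2 (0.000997 with that centring). At 50 nM they changed for TOP1 (0.061, span trend removed), TOP1MT (0.0091 with quantile normalization again, -0.32 to 0.020 without single arrays) and TDP2 (0.054 with quantile normalization again, 0.017 with untreated arrays in the control). For DMSO against untreated they changed for TOP1 (-0.10 with ribosomal protein centring) and, without single arrays, for TOP1MT (-0.33 to 0.016), TOP3A (-0.11 to 0.059) and TDP1 (-0.099 to 0.019). In the difference of responses TOP2A changed sign (0.22 with ribosomal protein centring). Among the partner genes RMI1 at 5 nM changed sign (-0.058 with that centring). Apart from the alternatives' own construction the cause was not tested.

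Replicate numbers of the labels were not shown to pair the arrays: deviations correlated at -0.168 between FLI1 and lacZ shRNA, -0.262 between untreated and DMSO, and 0.0486 to 0.174 among DMSO and the doses. With the replicate block, 2 members were called after FLI1 shRNA, 7 at 5 nM (8 without it), 5 at 50 nM, 7 between doses, 0 for DMSO and 5 for the difference of responses. A crossed block, added after seeing the data, called 2 members and 4355 genes after FLI1 shRNA (4398 without a block, 4203 with the block as numbered). Over all genes, fewer were called after FLI1 shRNA when any single FLI1 or lacZ shRNA array was left out. Calls for DMSO against untreated numbered 1, 11 with dim genes left out, 24 with ribosomal protein centring, 33 with trended and robust eBayes and 2 without DMSO replicate 2. In the difference of responses the share of calls that were higher was 49.0%, and 88.7% with ribosomal protein centring. With 2 arrays a group, a member that did not pass may still differ by any size within its interval.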

Other observations

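Among the members themselves, the correlation over 12 arrays was highest between TOP3A and TOP3B (Pearson r 0.94) and between TOP2B and TDP1 (0.92), followed by TOP1 with TDP1 and with TOP2B (0.88 each) and TOP2A with TOP3A (0.81). TDP2 ran against TOP1 (-0.87), TDP1 (-0.78) and TOP2B (-0.71). The arrays of a group share their treatment, so these values describe 6 group means more than 12 independent points.

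GpC steps, the letters at which actinomycin D intercalates, numbered 16 in the 250 bases before TOP2A, 21 before the outermost start of TOP2B and 48 before its inner start, 22 before TOP3A and before TOP3B, 25 before the listed start of TDP1, which lies inside the gene's outermost limits, 32 before TOP1 and 42 before TDP2. The median over 35116 windows was 20, and 99.2% of windows held as few as the inner TOP2B window or fewer.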
